A study of Mus musculus with 10 samples.

Results

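AP-1, BATF and IRF4 are transcription factors that act together on the enhancers of activated T cells. The 9 genes described here are Fos, Fosb, Fosl2, Jun, Junb, Jund, Batf, Irf4 and Atf3, chosen by name from these families out of 21556 genes in the count table. All 9 passed the filter on low counts, which left 13920 genes for testing. They were measured in regulatory T cells (Tregs), the Foxp3-expressing CD4 T cells that restrain immune responses. The cells were sorted by red fluorescence (RFP) from the tumor or the lymph node (LN) of mice aged 10 weeks that had been injected with a lymphangiogenic melanoma line.

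In MHCII-deleted mice (genotype MHCIIdeltaProx-1, Prox1CrePos) a Cre recombinase driven by Prox1 removes MHC class II, the molecule that shows peptides to CD4 T cells, from lymphatic endothelial cells. Prox1 is the master regulator of lymphatic endothelium and is also active in some other tissues, such as liver. Control mice (genotype MHCIIfl/fl, Prox1CreNeg) carry the floxed allele without Cre, so that all groups share that allele. There were 2 tumor libraries from MHCII-deleted mice, 3 tumor libraries from control mice, 2 LN libraries from MHCII-deleted mice and 3 LN libraries from control mice. The site of the LN is not given, and excision and digestion are described for the tumor. Tissue and tissue handling therefore cannot be told apart. The labels do not say that the libraries came from separate animals, so p-values measure the spread between these libraries, which may be technical.

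AP-1 is a dimer of basic leucine zipper proteins. FOS proteins (FOS, FOSB, FOSL2) pair with JUN proteins (JUN, JUNB, JUND), and JUN proteins can also pair with themselves, while FOS proteins cannot. Many of these genes are immediate early genes, whose transcripts appear within minutes of antigen receptor, growth factor or stress signals without new protein synthesis. BATF lacks a transactivation domain, pairs with JUN proteins (JUNB among them) and binds with IRF4 to composite AP-1-IRF elements. In mouse Tregs, Batf and Irf4 are known for their role in the effector program of tissue and tumor Tregs. ATF3 is a stress-induced member of the ATF/CREB family that can pair with JUN proteins.

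The promoters of 4 members are shown because these genes took different courses across the groups: Junb, Batf and Irf4 were lower in tumors of MHCII-deleted mice than in control tumors relative to all RNA, and Fos was not called there. Each runs from 250 bases before to 50 bases after the RefSeq start (GRCm38.p6), 5′ to 3′ on the strand of the gene: Junb at chr8:84978699-84978998 on the minus strand, Batf at chr12:85686470-85686769, Irf4 at chr13:30748983-30749282 and Fos at chr12:85473640-85473939, all 3 on the plus strand. Capitals mark the half-site of the cyclic AMP response element (TGACG) or the TATA box (TATAAA).
Junb: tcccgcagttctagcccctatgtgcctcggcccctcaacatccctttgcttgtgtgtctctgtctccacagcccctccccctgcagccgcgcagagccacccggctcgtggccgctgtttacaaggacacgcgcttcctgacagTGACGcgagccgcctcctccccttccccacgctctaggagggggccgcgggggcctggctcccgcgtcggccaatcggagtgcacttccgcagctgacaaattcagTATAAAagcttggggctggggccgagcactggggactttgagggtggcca
Batf: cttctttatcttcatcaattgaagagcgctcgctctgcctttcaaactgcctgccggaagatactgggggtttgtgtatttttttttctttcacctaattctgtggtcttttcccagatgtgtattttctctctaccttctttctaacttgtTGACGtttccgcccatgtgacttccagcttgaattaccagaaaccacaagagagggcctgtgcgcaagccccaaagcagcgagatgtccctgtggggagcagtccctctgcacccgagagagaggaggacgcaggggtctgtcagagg
Irf4: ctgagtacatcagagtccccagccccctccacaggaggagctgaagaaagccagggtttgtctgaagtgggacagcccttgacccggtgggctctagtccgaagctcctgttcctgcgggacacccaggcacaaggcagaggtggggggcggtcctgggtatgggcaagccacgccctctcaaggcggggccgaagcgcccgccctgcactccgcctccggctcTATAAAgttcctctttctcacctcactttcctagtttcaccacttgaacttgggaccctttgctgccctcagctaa
Fos: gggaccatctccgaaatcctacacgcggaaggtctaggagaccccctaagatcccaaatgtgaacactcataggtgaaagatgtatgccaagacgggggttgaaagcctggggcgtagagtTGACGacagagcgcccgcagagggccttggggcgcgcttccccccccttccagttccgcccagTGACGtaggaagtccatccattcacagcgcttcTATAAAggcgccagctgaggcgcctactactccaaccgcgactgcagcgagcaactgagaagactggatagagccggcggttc

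All 9 members had a RefSeq promoter, and both strands of it were searched. For Jund, Atf3 and Fosl2 the window is that of the RefSeq start (positions 70697739, 191183333 and 32136472), which is not the GENCODE gene start (70698949, 191218039 and 32135801), so their counts are for a window away from it. The starts also differed for Junb (84978748 and 84978718), Batf (85686720 and 85686669), Irf4 (30749233 and 30749226) and Fosb (19310045 and 19310051), with the GENCODE start inside the window. For Fos and Jun they were the same. The AP-1 site TGANTCA was in 0 of the 9 windows, against 7.79% of 32544 distinct promoters of the same length, and the full element TGACGTCA, which contains the half-site, was in 0 of 9, against 1.8%. The half-site TGACG was in 5 (Fos, Fosb, Junb, Batf and Atf3), against 20.9%, and TATAAA was in 3 (Fos, Junb and Irf4), against 13.6%. The variant TGACATCA, known as an AP-1-like site of the Jun promoter, was in 1 (Jun), against 3.37%. The NFAT core GGAAA was in 3 (Jun, Batf and Irf4), against 61.5%, and the Sp1 core GGGCGG in 7, against 35.9%. CCAAT was in 3 (Jun, Junb and Atf3), against 37.4%, and the CArG box, where serum response factor binds, was in 0, against 1.64%. These are matches of letters within 300 bases; enhancers were not searched.

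Libraries held 28539329 to 35736175 counts, and 12825 to 14703 genes were detected in each. Levels are in CPM, which puts libraries of unlike depth on 1 scale, with TMM factors, which set each library against the bulk of its RNA, and 3 counts corresponded to 0.0809 to 0.107 CPM. The 6 Treg markers were detected in every group, with Foxp3 at 345 ± 5.10 CPM in tumors of MHCII-deleted mice and 738 ± 85.9 CPM in control tumors, and at 617 ± 52.4 CPM in LN of MHCII-deleted mice and 687 ± 53.4 CPM in control LN (SD, n = 2, 3, 2 and 3). The summed level of 14 melanoma markers was 15409 and 18661 CPM in tumors of MHCII-deleted mice, 3762 to 7447 CPM in control tumors and 9.17 to 27.6 CPM in all LN libraries. The sum of 24 pan-T cell genes (Cd3e, Lck, Zap70 and others) was 7078 and 8386 CPM in tumors of MHCII-deleted mice, 16141 to 16984 CPM in control tumors and 17160 to 17968 CPM in LN. The sum of 15 stromal and endothelial markers was 397 and 954 CPM in tumors of MHCII-deleted mice, 576 to 4299 CPM in control tumors and 183 to 221 CPM in LN. The LN sum was nearly all Pecam1, with means of 204 CPM in MHCII-deleted and 202 CPM in control mice. Pecam1 was lower in their tumors (66.7 and 90.9 CPM). Col3a1, by contrast, had 0.0643 and 0.338 CPM in LN and 229 and 939 CPM in tumors of MHCII-deleted and control mice. Myeloid markers summed to 24.1 to 63.8 CPM in every library, B and plasma markers to 5.95 to 31.0 CPM, and CD8 T and NK markers to 40.0 to 92.6 CPM. In LN of MHCII-deleted mice Sox10, Cd14, Ncr1, Dcn, Lum, Lyve1 and Pdpn were at 0, and in control LN Ncr1 and Pdgfrb were at 0.

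In control mice the tumor Treg libraries held more transcript of 8 of the 9 members than the LN Treg libraries (edgeR quasi-likelihood test, Benjamini-Hochberg adjusted over 13920 genes, threshold 0.05). Over all tested genes, 38.9% were called in this comparison, 22.8% higher and 16.1% lower, and the groups did not overlap for 8 of 9 members, against 53% of all genes. The median log2 fold change of the members was 2.98, against 0.08 over all genes. In MHCII-deleted mice 6 members were higher and 2 lower in tumor than in LN (7 and 0 when scaled to pan-T cell genes), where 44.4% of all genes were called, 24.3% higher and 20.1% lower. There the groups did not overlap for 8 of 9 members, against 75.6% of all genes, and the median was 1.46, against 0.07.

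**Figure D1:**
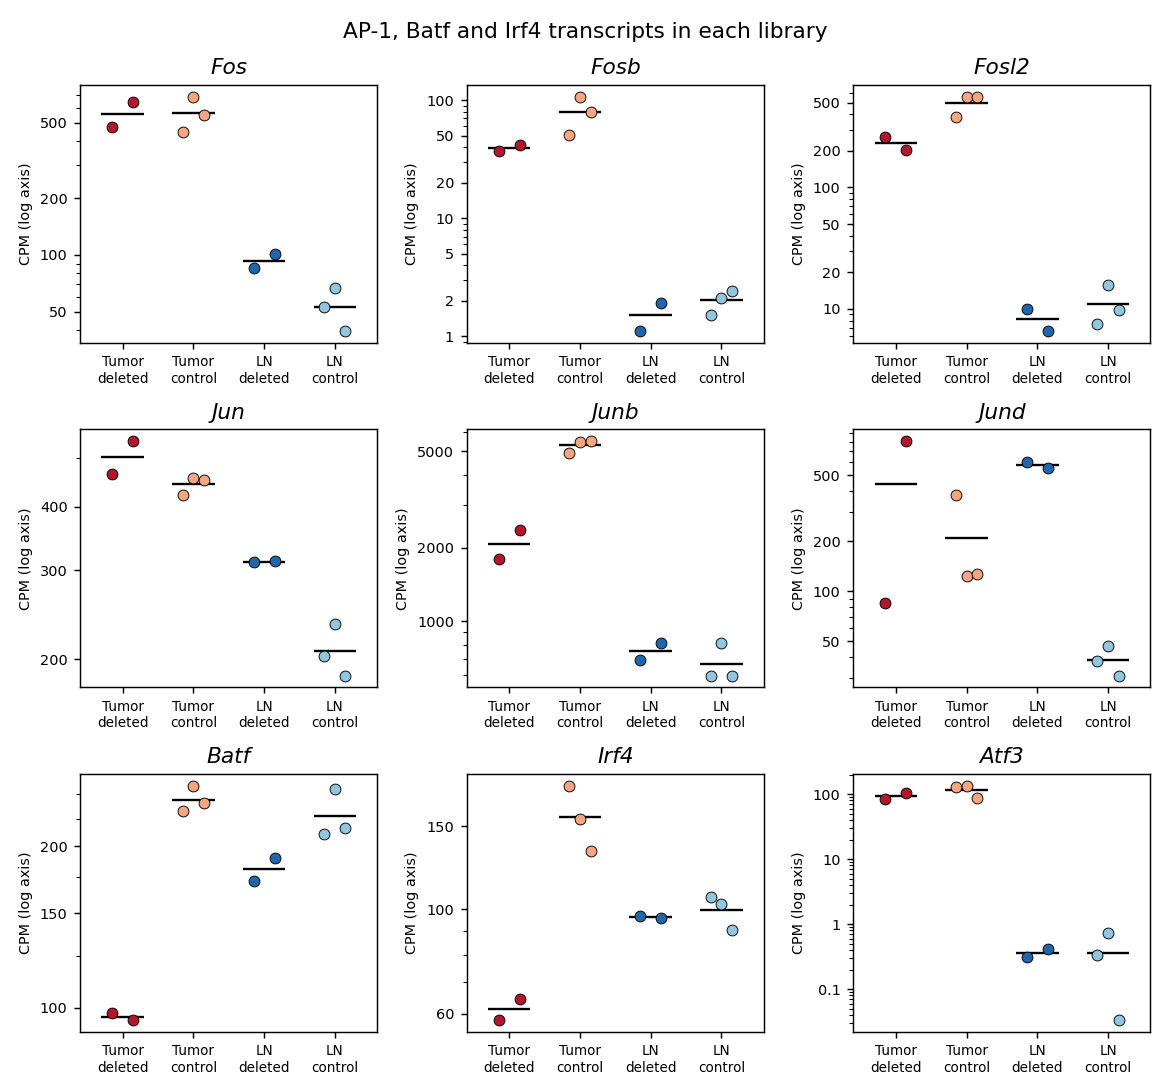
Level of each gene in every library, in CPM on a log axis; points are libraries and lines are group means. Fosb, Fosl2 and Atf3 stand far apart between tumor and LN, while Batf and Irf4 are lowest in the tumors of MHCII-deleted mice (94.8 to 97.5 and 58.2 to 64.6 CPM).

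Among the Fos genes, Fos itself, the classic partner of JUN in AP-1, had 475 and 644 CPM in tumors of MHCII-deleted mice and 446, 688 and 553 CPM in control tumors. In LN it had 84.9 and 101 CPM in MHCII-deleted mice and 53.2, 66.5 and 39.6 CPM in control mice. All tumor libraries lay above all LN libraries, and the 2 genotypes overlapped in tumor but not in LN. The tumor over LN log2 fold change was 2.59 ± 0.28 (SE, adjusted p = 6.06e-05) in MHCII-deleted mice and 3.40 ± 0.23 (adjusted p = 4.36e-06) in control mice, both by edgeR.

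Fosb, an immediate early gene known for its alternatively spliced short form, had 37.1 and 41.3 CPM in tumors of MHCII-deleted mice and 50.5, 107 and 79.1 CPM in control tumors. In LN it was near the low end of what was tested, with 1.11 and 1.90 CPM in MHCII-deleted mice and 1.52, 2.10 and 2.44 CPM in control mice. Every tumor library thus exceeded every LN library, by a log2 fold change of 4.71 ± 0.42 in MHCII-deleted mice (edgeR adjusted p = 1.86e-05) and 5.29 ± 0.34 in control mice (edgeR adjusted p = 2.84e-06). Fosl2, which encodes the longer-lived FRA-2, behaved alike in direction: it had 262 and 205 CPM in tumors of MHCII-deleted mice and 384, 558 and 560.1 CPM in control tumors. Its LN levels were 10.0 and 6.56 CPM in MHCII-deleted mice and 7.47, 15.7 and 9.76 CPM in control mice, and its tumor over LN log2 fold change was 4.81 ± 0.39 in MHCII-deleted mice and 5.51 ± 0.33 in control mice (edgeR adjusted p = 1.49e-05 and 2.37e-06).

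Atf3 showed the widest span of the 9 genes. It had 83.3 and 104 CPM in tumors of MHCII-deleted mice and 130.1, 135 and 86.9 CPM in control tumors. LN levels were 0.312 and 0.418 CPM in MHCII-deleted mice and 0.334, 0.728 and 0.0334 CPM in control mice. They rest on 24 counts over 2 LN libraries of MHCII-deleted mice (95% Poisson interval of the level 0.232 to 0.539 CPM) and on 39 counts over 3 control LN libraries (0.277 to 0.533 CPM), 1 of which had a single count; the intervals cover counting error only. The tumor over LN log2 fold change was 7.997 ± 0.65 in MHCII-deleted mice and 8.25 ± 0.53 in control mice (edgeR adjusted p = 1.55e-05 and 3.91e-06), and leaving out single libraries moved it between 7.79 and 8.21 and between 7.76 and 9.24.

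Among the Jun genes, Junb was the most abundant member. Its protein is a known partner of BATF in mouse T cells. Per kilobase of exon, Junb ranked 17 of 13920 genes in tumors of MHCII-deleted mice (904 ± 174 CPM per kb, SD, n = 2) and 6 in control tumors (2296 ± 148 CPM per kb, n = 3). It had 1798 and 2362 CPM in tumors of MHCII-deleted mice and 4889, 5469 and 5489 CPM in control tumors, and 694 and 816 CPM in LN of MHCII-deleted mice and 599, 812 and 599 CPM in control LN. The 2 LN groups overlapped, and both tumor groups lay above them. Tumor over LN, the log2 fold change was 1.46 ± 0.18 in MHCII-deleted mice (edgeR adjusted p = 0.000138) and 2.98 ± 0.15 in control mice (edgeR adjusted p = 7.94e-07).

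Jun, the founding JUN gene and the target of JNK kinases, differed less between tissues. It had 464 and 539 CPM in tumors of MHCII-deleted mice, 422, 456 and 452 CPM in control tumors, 312 CPM in both LN libraries of MHCII-deleted mice, and 203, 235 and 186 CPM in control LN. None of the 4 groups overlapped with its neighbour in this order. The tumor over LN log2 fold change was 0.68 ± 0.13 in MHCII-deleted mice and 1.09 ± 0.10 in control mice (edgeR adjusted p = 0.00165 and 3.45e-05).

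Jund, which is usually expressed steadily and restrains proliferation in fibroblasts, had no order common to tissue or genotype. It had 85.1 and 804 CPM in tumors of MHCII-deleted mice and 379, 124 and 128 CPM in control tumors. In LN it had 599 and 557 CPM in MHCII-deleted mice and 37.8, 46.7 and 31.0 CPM in control mice. The 2 tumor libraries of MHCII-deleted mice thus lay on opposite sides of the control tumors. The tumor over LN log2 fold change was −0.38 ± 0.83 in MHCII-deleted mice (edgeR adjusted p = 0.735; −2.77 without tumor replicate 2, which leaves that group 1 library) and 2.45 ± 0.72 in control mice (edgeR adjusted p = 0.0234), and the call in control mice was lost without the low-count filter (adjusted p = 0.0739) and when any of the 3 control LN libraries or control tumor replicate 1 was left out (1.71 to 2.72 over all omissions).

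Batf and Irf4 had another order of levels, with control tumors highest and tumors of MHCII-deleted mice lowest. Batf had 97.5 and 94.8 CPM in tumors of MHCII-deleted mice and 232, 259 and 241 CPM in control tumors, against 172 and 190.2 CPM in LN of MHCII-deleted mice and 211, 256 and 216 CPM in control LN. Control tumors and control LN overlapped (log2 fold change 0.10 ± 0.10, edgeR adjusted p = 0.447), whereas in MHCII-deleted mice Batf was lower in tumor than in LN (−0.91 ± 0.12, edgeR adjusted p = 0.000245). Irf4, which is induced in proportion to antigen receptor signal strength, had 58.2 and 64.6 CPM in tumors of MHCII-deleted mice and 183, 156 and 133 CPM in control tumors. In LN it had 96.9 and 96.0 CPM in MHCII-deleted mice and 106, 103 and 90.2 CPM in control mice, and these 2 groups overlapped. Irf4 was lower in tumor than in LN in MHCII-deleted mice (−0.65 ± 0.16, edgeR adjusted p = 0.00707) and higher in control mice (0.66 ± 0.13, edgeR adjusted p = 0.00276).

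The tissue results for Batf and Irf4 in MHCII-deleted mice turned with the scaling. When libraries were scaled to the 24 pan-T cell genes instead of to all RNA, the log2 fold change of tumor over LN was 0.28 for Batf (edgeR adjusted p = 0.114) and 0.53 for Irf4 (adjusted p = 0.0117), and 7 members were called, all higher. The median of all genes was 1.26 under that scaling and 0.07 under TMM, and it called 66.2% of all genes, 63.9% higher and 2.36% lower. In control mice 8 members were higher under both scalings, and pan-T cell scaling called 34.7% of all genes there. The 24 genes used for scaling were not all steady between the tissues. Under that scaling 5 of them were higher and 10 lower in tumor than in LN of MHCII-deleted mice. In control mice 4 were higher and 10 lower. In bulk RNA, fewer cells of a type and less RNA per cell cannot be told apart. The melanoma, stromal and pan-T cell sums given above move with tissue, and so does the digestion described for the tumor. Of 21 immediate early and dissociation stress genes, 10 were higher and 2 lower in tumor than in LN of MHCII-deleted mice under TMM. There were 17 higher and 2 lower in control mice, among them Nr4a1 (3.02), Klf6 (2.396) and Nr4a2 (5.15). Of all genes, TMM called 24.3% higher and 20.1% lower in MHCII-deleted mice, and 22.8% and 16.1% in control mice. Pan-T cell scaling called 23.6% higher and 11.1% lower in control mice. Under that scaling 17 of the 21 stress genes were higher and 2 lower in both genotypes. Their part in the tissue differences of the 9 members was not tested.

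**Figure D2:**
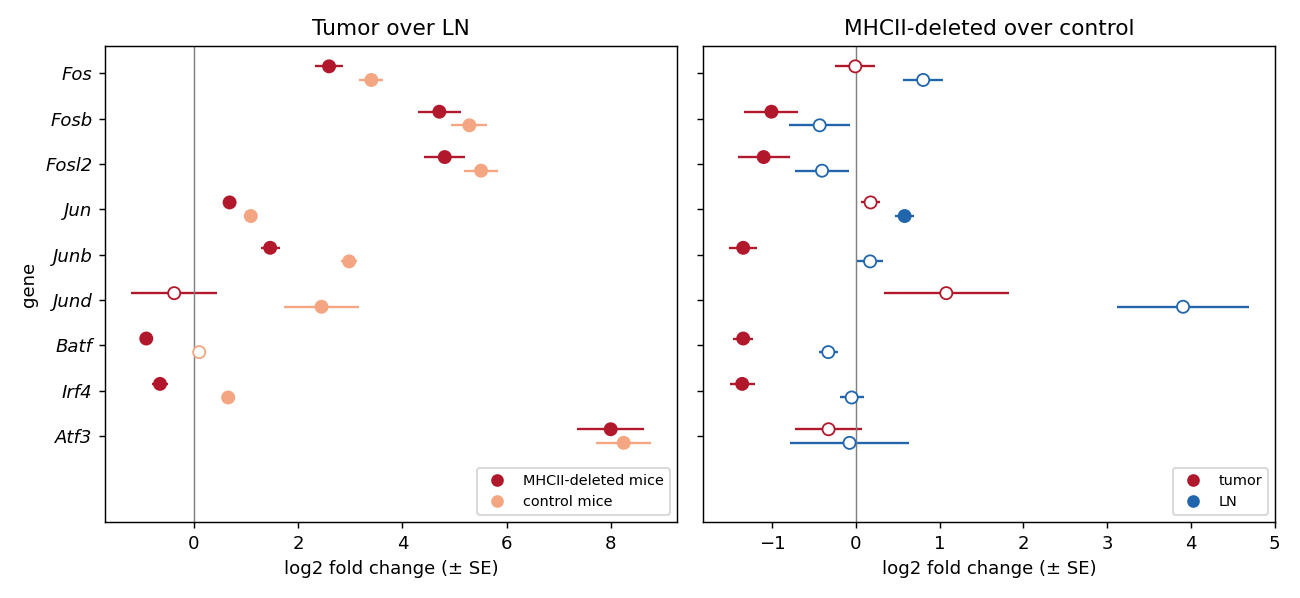
Log2 fold change with its standard error for tumor over LN (left) and for MHCII-deleted over control mice (right); filled points passed an adjusted p of 0.05. Left, 8 members are higher in control tumors, while Batf and Irf4 lie below 0 in MHCII-deleted mice (above 0 when scaled to pan-T cell genes); right, 5 members are lower in tumor (0 when so scaled) and Jun alone is called in LN.

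The study asks what loss of MHC class II on lymphatic endothelium changes in Tregs. In tumors, 5 of the 9 members were lower in MHCII-deleted than in control mice and 0 were higher relative to all RNA, but 0 lower and 3 higher relative to pan-T cell genes, a scaling that called 67.2% of all genes, 66.9% higher and 0.345% lower. Relative to all RNA, 28.7% of all tested genes were called, 13.7% lower and 15% higher. The members' median log2 fold change was −1.01, against 0.10 over all genes, and the groups did not overlap for 6 of 9, against 53.6% of all genes. Fos, Jun, Jund and Atf3 were not called.

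Batf, Irf4 and Junb, the partners at composite AP-1-IRF elements, were all lower. The tumor log2 fold changes of MHCII-deleted over control mice were −1.34 ± 0.12 for Batf (edgeR adjusted p = 0.000177), −1.36 ± 0.15 for Irf4 (adjusted p = 0.000302) and −1.34 ± 0.17 for Junb (adjusted p = 0.000534), which is 0.394, 0.391 and 0.394 of the control level. Both libraries of MHCII-deleted mice lay below all 3 control libraries for each gene. The 3 calls held when each library was left out in turn (Batf −1.38 to −1.30, Irf4 −1.46 to −1.23, Junb −1.55 to −1.16). In the fits with 1 tumor library of MHCII-deleted mice left, that library was assumed to vary like the other groups.

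Fosb and Fosl2 were lower in tumors of MHCII-deleted mice by a smaller margin against their spread. The log2 fold change was −1.01 ± 0.32 for Fosb (edgeR adjusted p = 0.0415) and −1.10 ± 0.31 for Fosl2 (edgeR adjusted p = 0.0262), without overlap between the groups. The Fosb call was lost when only the tumor groups were fitted (adjusted p = 0.0586), with limma-voom (0.0688) and in 6 of 10 fits that left out 1 library (−1.25 to −0.72). The Fosl2 call was lost without control tumor replicate 2 or 3 or tumor replicate 2 of MHCII-deleted mice (−1.29 to −0.93).

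The remaining 4 members did not pass the test in tumor. Fos differed by −0.01 ± 0.24 on the log2 scale (edgeR adjusted p = 0.991) and Atf3 by −0.33 ± 0.40 (edgeR adjusted p = 0.574), with overlapping groups. Jun was 0.18 ± 0.11 higher in value (edgeR adjusted p = 0.266), its 2 libraries of MHCII-deleted mice lying just above the 3 control libraries. Jund had a log2 fold change of 1.08 ± 0.75 (edgeR adjusted p = 0.302) that was −1.30 without tumor replicate 2 of MHCII-deleted mice and 1.93 without tumor replicate 1, each with 1 library left in the group.

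These differences are relative to all RNA in the library, and pan-T cell transcripts moved with them. Of the 24 pan-T cell genes 23 were lower in tumors of MHCII-deleted than of control mice (median log2 fold change −1.03), and of 14 melanoma markers 12 were higher and 0 lower (median 1.81). Of 15 stromal and endothelial markers 3 were higher and 1 lower. With libraries scaled to the pan-T cell genes, the log2 fold changes were −0.23 ± 0.13 for Batf (edgeR adjusted p = 0.141), −0.25 ± 0.14 for Irf4 (adjusted p = 0.143) and −0.25 ± 0.14 for Junb (adjusted p = 0.13), so that none of the 3 was called. Fosb was then at 0.091 (adjusted p = 0.817) and Fosl2 at 0.020 (adjusted p = 0.96).

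Fos, Jun and Jund were called under that scaling. Fos was higher in tumors of MHCII-deleted mice by 1.08 ± 0.22 on the log2 scale (edgeR adjusted p = 0.00136), Jun by 1.28 ± 0.11 (adjusted p = 1.8e-05) and Jund by 2.10 ± 0.69 (adjusted p = 0.0207), while Atf3 was at 0.78 ± 0.37 (adjusted p = 0.0893). Per 1000 pan-T cell counts, Fos had 72.0 ± 6.83 in MHCII-deleted and 34.0 ± 7.62 in control tumors, and Jun had 64.9 ± 0.938 and 26.8 ± 1.69 (SD, n = 2 and 3). Jund had 12.0 and 95.9 in the tumors of MHCII-deleted mice and 22.3, 7.49 and 7.90 in control tumors. Its groups thus overlapped, and its higher mean rests on 1 library. In tumors of MHCII-deleted mice Batf had 12.5 ± 1.75, Irf4 7.96 ± 0.372 and Junb 268 ± 19.6, against 14.7 ± 0.988, 9.47 ± 1.27 and 319 ± 27.6 in control tumors. The median of all genes was 1.21 under this scaling and 0.10 under TMM. The part of melanoma, stromal and other non-T cell RNA in the levels of Fos, Jun, Fosb, Fosl2 and Atf3 was not tested.

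**Figure D3:**
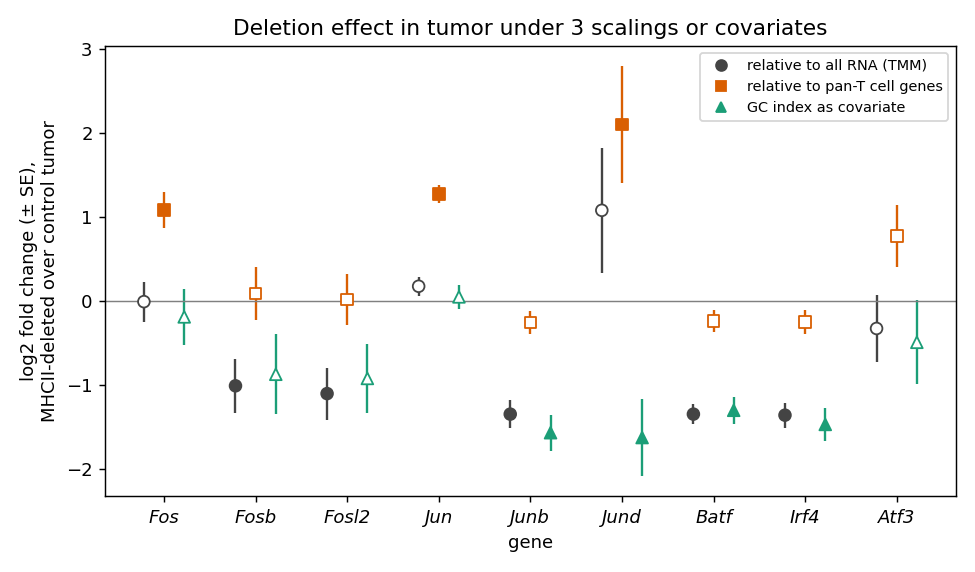
Log2 fold change of MHCII-deleted over control tumors with its standard error for each gene, relative to all RNA, relative to 24 pan-T cell genes, and with the GC index of the libraries as a covariate; filled symbols passed an adjusted p of 0.05. Batf, Irf4 and Junb lie between −1.36 and −1.34 relative to all RNA and between −0.25 and −0.23 relative to pan-T cell genes.

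In LN, 1 member passed the test between genotypes, where 1.11% of all tested genes were called, 1.07% higher and 0.0359% lower in MHCII-deleted mice. Jun was higher in MHCII-deleted mice by a log2 fold change of 0.58 ± 0.11 (edgeR adjusted p = 0.0497), and this call was lost in 7 of 10 fits that left out a library (0.51 to 0.69) and with RLE size factors (0.54, adjusted p = 0.0601). Jund had a value of 3.91 ± 0.79 (edgeR adjusted p = 0.0539) and Fos one of 0.80 ± 0.24 (edgeR adjusted p = 0.151), and for Batf it was −0.33 ± 0.11 (edgeR adjusted p = 0.252). These 4 are also the members whose LN groups did not overlap, a share of 4 of 9, against 27.3% of all genes. Beside Jun, DESeq2 called Jund (3.87, adjusted p = 0.00023), Fos (0.76, adjusted p = 0.0336) and Batf (−0.37, adjusted p = 0.0481), and limma-voom called Jund and Fos. In edgeR, Jund was called in 3 of 10 fits that left out a library (3.77 to 4.08 over all 10). Junb (0.17), Irf4 (−0.05), Fosb (−0.43), Fosl2 (−0.40) and Atf3 (−0.07) had edgeR adjusted p-values of 0.931 or more. The median over the members was −0.05, against 0 over all genes.

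The effect of the deletion was then compared between tissues by an interaction term, which called 10.7% of all genes, 6.57% lower and 4.14% higher in tumor than in LN. It called 3 members, all lower: Junb by −1.52 ± 0.23 on the log2 scale (edgeR adjusted p = 0.00572), Irf4 by −1.31 ± 0.20 (adjusted p = 0.00581) and Batf by −1.02 ± 0.16 (adjusted p = 0.00584). The members' median was −0.81, against −0.01 over all genes. Under pan-T cell scaling these were −0.42 (adjusted p = 0.101), −0.20 (adjusted p = 0.468) and 0.10 (adjusted p = 0.731), and Jun was the member called, at 0.69 (adjusted p = 0.00475). That scaling put the median of all genes at 1.10 and called 45.6% of all genes, 45.5% higher. Fos (−0.81), Jun (−0.41), Fosb (−0.58), Fosl2 (−0.70), Atf3 (−0.25) and Jund (−2.83 ± 1.09) were not called under TMM. Without tumor replicate 2 of MHCII-deleted mice, which leaves 1 library in that group, the Jund value was −5.21. The interaction uses the same libraries as the comparisons above and is no separate evidence.

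Jund and, less so, the other Jun genes have GC-rich coding sequences, and libraries differed in the level of GC-rich genes. The windows below are 100 bases of coding sequence (GRCm38, strand of the gene, 5′ to 3′), with G and C in capitals: Jund at chr8:70699626-70699725 on the plus strand (86% GC), Junb at chr8:84977890-84977989 on the minus strand (76%) and Jun at chr4:95050642-95050741 on the minus strand (78%). They are shown for the base composition of the 3 Jun genes.
Jund: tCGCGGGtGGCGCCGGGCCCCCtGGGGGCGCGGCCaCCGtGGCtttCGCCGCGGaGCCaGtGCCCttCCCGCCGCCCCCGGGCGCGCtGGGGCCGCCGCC
Junb: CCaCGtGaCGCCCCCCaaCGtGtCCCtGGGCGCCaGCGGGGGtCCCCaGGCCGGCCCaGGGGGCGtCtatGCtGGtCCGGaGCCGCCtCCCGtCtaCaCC
Jun: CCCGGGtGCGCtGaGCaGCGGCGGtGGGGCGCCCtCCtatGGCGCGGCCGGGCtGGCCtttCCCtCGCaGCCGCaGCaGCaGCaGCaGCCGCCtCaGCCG

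Over whole transcripts the most GC-rich window of 100 bases held 86% GC in Jund, 79% in Junb and Fosl2, 78% in Jun, 77% in Fosb, 76% in Atf3, 70% in Fos, 69% in Batf and 68% in Irf4. A GC index was computed per library as the mean log2 CPM of genes with a window above 85% GC minus that of genes with none above 65%, leaving the 9 members out. It was −0.43 and 0.52 in tumors of MHCII-deleted mice and −0.43, −0.70 and −0.47 in control tumors, and 0.18 and 0.08 in LN of MHCII-deleted mice and −0.69, −0.65 and −0.74 in control LN. Jund was highest, at 557 to 804 CPM, in the 3 libraries with an index above 0, and had 31.0 to 379 CPM in the others. Junb showed no such order, with 694 to 2362 CPM in those 3 libraries and 599 to 5489 CPM in the others.

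With the index as a covariate, the tumor log2 fold change of Jund was −1.62 (edgeR adjusted p = 0.033) and its LN value 1.03 (adjusted p = 0.716), and Jun in LN was at 0.41 (adjusted p = 0.657). The slope of the index comes from its spread within groups. That spread was widest between the 2 tumor libraries of MHCII-deleted mice (SD 0.67, against 0.15 in control tumors and 0.08 and 0.05 in LN of MHCII-deleted and control mice). All values with the covariate therefore lean on that pair, where Jund had 85.1 and 804 CPM. In LN the index and the genotype cannot be told apart, since both libraries of MHCII-deleted mice lay above all 3 control libraries. Of the 149 genes called higher in LN of MHCII-deleted mice, 32.9% had a window above 85% GC, against 8.06% of all tested genes. Batf, Irf4 and Junb stayed called as lower in tumor with the covariate, whereas Fosb (−0.87, adjusted p = 0.224) and Fosl2 (−0.92, adjusted p = 0.143) did not.

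**Figure D4:**
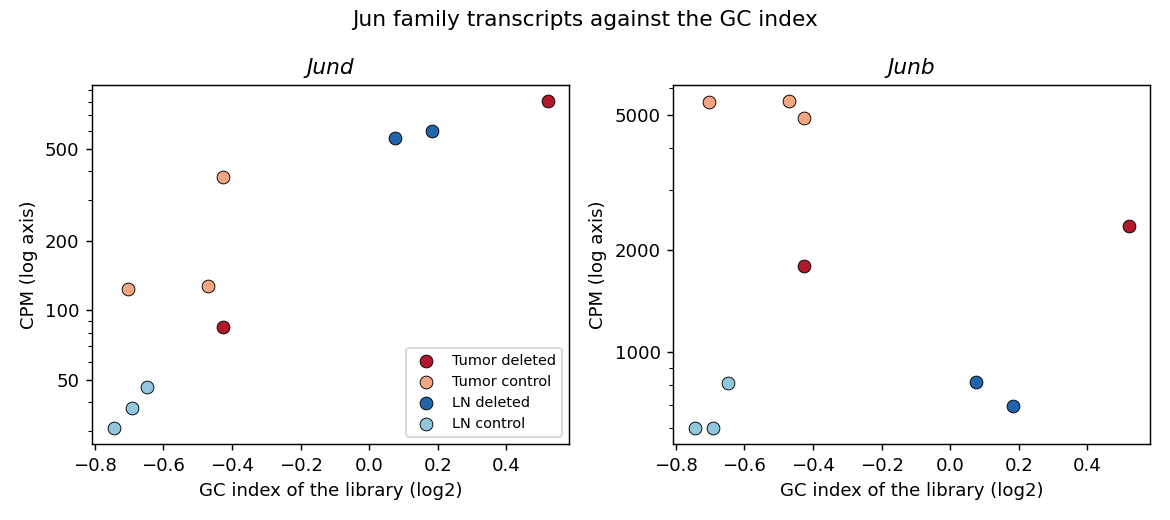
Level of Jund (left) and Junb (right) in CPM on a log axis against the GC index of each of the 10 libraries. The 3 libraries with an index above 0 hold the highest Jund levels (557 to 804 CPM), and Junb shows no such order.

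Overlapping genes bear on 3 of the Jun counts, because the strand setting of the counting is not given. Junb (chr8:84974484-84978718) shares 173 exonic bases with Prdx2 on the opposite strand, Jund (chr8:70698949-70700616) shares 877 with the antisense gene Gm11175, and Jun (chr4:95049034-95052222) shares 232 with the antisense gene Junos. Reads from these stretches cannot be assigned to 1 of the partners here. No annotated exon overlapped Fos (chr12:85473890-85477273), Fosb (chr7:19302696-19310051), Fosl2 (chr5:32135801-32157842), Batf (chr12:85686669-85709087), Irf4 (chr13:30749226-30766976) or Atf3 (chr1:191170296-191218039).

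Ratios between members within a library do not depend on the scaling, but they do depend on the mix of cells in it. The melanoma, stromal and pan-T cell sums given above differed between the groups. Their part in the shares and ratios below was not tested. Junb made up 85.1% ± 1.11 of Jun plus Junb (CPM per kb) in tumors of MHCII-deleted mice and 94.3% ± 0.133 in control tumors, and 76.9% ± 2.00 in LN of MHCII-deleted mice and 81.6% ± 1.20 in control LN (SD, n = 2, 3, 2 and 3). Libraries of the 2 genotypes did not overlap in either tissue. Fos made up 88.4% ± 3.41 of Fos, Fosb and Fosl2 in tumors of MHCII-deleted mice and 78.8% ± 1.64 in control tumors, and 97.3% ± 0.714 and 93.9% ± 1.72 in the LN of MHCII-deleted and control mice. The 3 Fos genes together reached 0.253 ± 0.000913 of Jun plus Junb in tumors of MHCII-deleted mice and 0.124 ± 0.0205 in control tumors.

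Within the Batf, Irf4 and Junb group the mean proportions were close in the 2 kinds of tumor. Junb over Batf was 13.2 ± 2.80 in tumors of MHCII-deleted mice and 13.2 ± 0.609 in control tumors, and 2.54 ± 0.115 and 1.79 ± 0.132 in LN of MHCII-deleted and control mice. The 2 tumor libraries of MHCII-deleted mice, at 11.3 and 15.2, lay on opposite sides of the control tumors (12.9 to 13.9). Irf4 over Batf was 0.183 ± 0.0171 and 0.185 ± 0.0357 in the tumors of MHCII-deleted and control mice, with overlapping libraries. These shares and ratios are descriptions of the libraries, without a test.

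**Figure D5:**
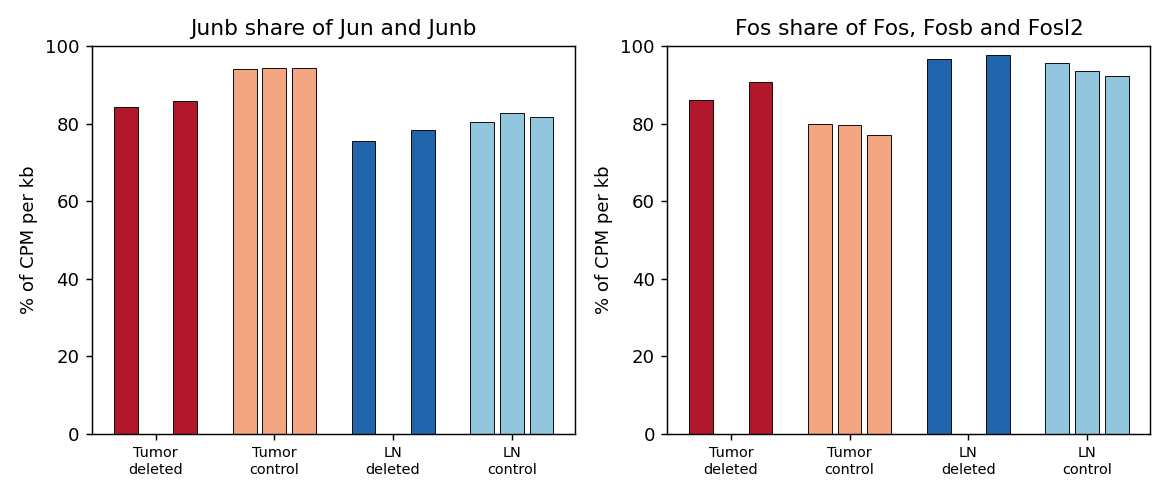
Junb as a percentage of Jun plus Junb (left) and Fos as a percentage of Fos, Fosb and Fosl2 (right), from CPM per kb of exon; each bar is 1 library. The Junb share averages 85.1% in tumors of MHCII-deleted mice and 94.3% in control tumors, and the Fos share 88.4% and 78.8%.

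Genes that depend on Batf or Irf4 in effector Tregs, from a list of 13 made with earlier results of these data known, were lower in tumors of MHCII-deleted mice in 11 cases and higher in 0 (median log2 fold change −1.32), but in 3 and 0 cases under pan-T cell scaling (median −0.23). For this and the list counts that follow, the background is the share of all genes called. For the deletion in tumor it was 15% higher and 13.7% lower under TMM, and 66.9% and 0.345% under pan-T cell scaling. Under TMM the shares for the deletion in LN were 1.07% and 0.0359%. Tumor over LN, they were 24.3% higher and 20.1% lower in MHCII-deleted mice and 22.8% and 16.1% in control mice. Il10, an anti-inflammatory cytokine, was at −1.59 under TMM and −0.49 under pan-T cell scaling, both called, and the costimulatory receptor gene Tnfrsf18 at −1.37 and −0.27, likewise both called. Ctla4, an inhibitory receptor, was at −1.18, called, and at −0.08, not called. In LN 3 of the 13 were lower in MHCII-deleted mice under TMM and under pan-T cell scaling, namely Il10 (−1.55), Icos (−0.75) and Ctla4 (−0.64). With RLE size factors 1 of the 13 was called lower in LN. Pan-T cell scaling called 2.74% of all genes higher and 0.0575% lower in LN. With the GC index as a covariate 0 of all tested genes were called in LN, and these 3 were at −1.79 (edgeR adjusted p = 0.155), −1.08 (adjusted p = 0.245) and −0.84 (adjusted p = 0.232). In tumor over LN, 11 of 13 were higher in MHCII-deleted mice and 12 in control mice, with Areg, a tissue repair factor, at 5.63 in MHCII-deleted and 6.42 in control mice.

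The other interferon regulatory factors gave 5 of 8 lower and 0 higher in tumors of MHCII-deleted mice, among them Irf2 (−1.14), Irf8 (−1.07) and Irf5 (−0.92), but 0 lower and 3 higher under pan-T cell scaling. In control mice 3 of the 8 were higher in tumor than in LN, Irf8 (1.57) and Irf5 (1.11) among them, and 3 were lower, such as Irf3 (−0.87). Tumor over LN in MHCII-deleted mice, 0 of the 8 were higher and 4 lower. Pan-T cell scaling gave 3 higher and 0 lower there, where it called 63.9% of all genes higher and 2.36% lower. Of 17 other AP-1 and related leucine zipper factors, 2 were higher in tumors of MHCII-deleted mice (Ddit3, a stress-response factor, 1.06) and 2 lower (Crem, a cyclic AMP response factor, −1.11, and the small Maf gene Mafk, −0.36). Pan-T cell scaling gave 11 higher and 0 lower, with Crem at −0.0018 and Mafk at 0.75. Tumor over LN, 10 of these 17 were higher and 1 lower in MHCII-deleted mice and 8 were higher and 1 lower in control mice, with Crem at 3.20 in MHCII-deleted and 3.78 in control mice.

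Of 16 kinases and factors upstream of AP-1, 1 was higher in tumors of MHCII-deleted mice (Map2k4, an activator of JNK, 0.67) and 0 were lower, against 15 and 0 under pan-T cell scaling. In LN 3 were higher in MHCII-deleted mice, among them Mapk14 (2.48) and Srf (2.96). The most GC-rich windows of Mapk14 and Srf held 83% and 86% GC, 0 of the 16 were called with RLE size factors or with the GC index as a covariate, and all 3 were called under pan-T cell scaling. Of the 21 immediate early and dissociation stress genes, 9 were lower and 0 higher in tumors of MHCII-deleted mice, with Ier2 at −1.25, Zfp36 at −1.19 and Btg2 at −1.18, but 0 were lower and 6 higher under pan-T cell scaling.

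Finally, the 3 genes with the most similar profile to each member were sought among 8862 genes of at least 10 CPM, by Pearson's r of log2 CPM over the 10 libraries, which share the 4 groups and their depth. Batf was most like Foxp3 (r = 0.986), Tmem179b (0.980) and Ly6e (0.975), and Irf4 was most like H2-Q7 (0.977), Ncf4 (0.975) and Dpy19l3 (0.975). Junb was most like Tgif1 (0.995), Dusp10 (0.995) and Ccr8 (0.993). Fosb was most like the collagen genes Col3a1 (0.996) and Col6a1 (0.996) and Areg (0.994), and Fosl2 like Sdc4 (0.998), Dgat1 (0.994) and Hilpda (0.993). Fos was most like Klf11 (0.987), Pmp22 (0.985) and Gpat4 (0.982), Jun like Map1lc3a (0.974), Mef2c (0.971) and Pim3 (0.969), and Atf3 like Acod1 (0.989), Mmp2 (0.985) and Dusp4 (0.984). Jund was most like Pnrc1 (0.987), Herpud2 (0.987) and Cited2 (0.983).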

How the data were processed

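Tregs sorted by RFP gave 10 RNA libraries in 4 groups. Per the labels, cDNA came from SMARTer Ultra Low amplification and libraries from Nextera XT, sequenced as single reads. STAR 2.4, featureCounts 1.4.6, CASAVA 1.8.2 and GRCm38 stand in the submitters' processing notes; annotation release and strand setting are not given in the sources used here. The deposited table holds raw counts for each Ensembl gene, not normalized by the authors. All 21556 IDs were matched to GENCODE M21 symbols.

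Counts were tested in R 4.3.3 with edgeR 4.0.16 (filterByExpr with a minimum count of 10, TMM, robust quasi-likelihood F test on 4 group means over all 10 libraries, Benjamini-Hochberg adjustment, threshold 0.05). SE is the size of the log2 fold change divided by the square root of F. The scripts were tested on simulated counts. Alternatives were RLE size factors, DESeq2 1.42.0, limma 3.58.1 (voom with quality weights), no filter, only the groups compared, a replicate block, scaling to 24 pan-T cell genes and the omission of each library. The GC index as a covariate was chosen after seeing the data. Poisson intervals are at 95% and cover counting error only.

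The members and lists were chosen with earlier results of these data known. Named genes are the 9 members, up to 3 called genes by p from each pathway list and comparison, and the 3 most similar genes per member; the value of 1 list gene is not reported here.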

Additional observations from a re-analysis of the deposited data

Results flagged for a closer look

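For 3 of the 9 members the effect of the MHCII deletion differed between the tissues by the test of the difference itself (edgeR quasi-likelihood interaction term, adjusted over 13920 genes, of which 10.7% were called). Junb differed by −1.52 ± 0.23 on the log2 scale (tumor minus LN, adjusted p = 0.00572): the deletion effect was −1.34 in tumor and 0.17 in LN. Irf4 differed by −1.31 ± 0.20 (edgeR adjusted p = 0.00581), with −1.36 in tumor and −0.05 in LN. Batf differed by −1.02 ± 0.16 (edgeR adjusted p = 0.00584), with −1.34 in tumor and −0.33 in LN. All 3 calls held when each library was left out in turn, where a group left with 1 library was assumed to vary like the other groups, and 0 of the 3 held under pan-T cell scaling, where Batf was at 0.10. Of the pan-T cell genes, 23 of 24 were also called lower in this interaction (median −1.05), and the part of that difference in the 3 results was not tested.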

How the results depend on the processing

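Of the member values under the alternatives, 131 of 162 kept their direction and side of the threshold for the deletion in tumor. For the deletion in LN it was 136 of 162. For tissue it was 157 of 162 in MHCII-deleted mice and 157 of 162 in control mice, and for the interaction 142 of 153. Counts of calls are not among these values. Pan-T cell scaling changed most: for the deletion in tumor it called 9355 genes (3999 under TMM) and 3 members (5), and Fos was at 1.08, Fosb at 0.091 and Fosl2 at 0.020; for the interaction it called 6349 genes (1491) and 1 member (3), with Jun at 0.69 and Batf at 0.10; for tissue in MHCII-deleted mice Batf was at 0.28 and Irf4 at 0.53. With the GC index Jund in tumor was at −1.62. The deletion in LN gave 154 genes and 1 member in edgeR, but 23 and 0 with RLE, 659 and 4 with DESeq2, 787 and 3 with limma-voom, 806 and 3 with only the LN groups, 390 and 2 with pan-T cell scaling, 0 and 0 with the GC index (1035 and 1 at an unadjusted p under 0.05), and 0 to 611 genes and 0 to 2 members when a library was left out. Genes called for the deletion in tumor numbered 2519 with only the tumor groups, and 2745 to 3695 with a library left out, which left 3 to 5 members. The interaction gave 2487 genes with DESeq2 (1260 higher and 1227 lower, against 576 and 915) and 527 to 2281 with a library left out. Same-numbered LN and tumor libraries correlated by 0.08, 0.12 and 0.18 (control mice) and by 0.14 (MHCII-deleted mice) (deviations from group means over genes), so that the numbers were not taken to pair them, although each correlated best with its own number. A replicate block gave 3144 genes for the deletion in tumor (4 members, Fosl2 at −1.06, adjusted p = 0.0804), 0 genes and 0 members in LN (1140 and 4 at an unadjusted p under 0.05), 5737 and 4903 genes for tissue in MHCII-deleted and control mice, and 1126 for the interaction. Where no cause is named, the cause was not tested. Atf3 had 1 to 27 counts per LN library, so its LN values are imprecise.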
